A study of Mus musculus with 6 samples.

Results

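The 10 Notch pathway genes described here were chosen by symbol from the 53819 genes of the count table: the receptors Notch1, Notch2 and Notch3, the ligands Dll1, Dll3, Jag1 and Jag2, the target genes Hes1 and Nrarp, and Lfng, a sugar transferase that modifies the receptors. All 10 were in the table and 9 had enough reads to be tested, of 17155 genes tested in all. RNA came from gastruloids, which are mouse embryonic stem cells (ESC), here of the line E14, grown as 3D aggregates, in 3 libraries treated with budesonide, a synthetic glucocorticoid, for 80 h and in 3 untreated libraries. The labels give no dose, no vehicle for the untreated aggregates and no collection time for them, and they do not tell if each replicate was its own culture. The p-values therefore describe the spread among these 6 samples alone, and that spread may be technical. All libraries come from a single ESC line.

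Notch signalling passes between touching cells. A Delta-like or Jagged ligand on a neighbour pulls on the Notch receptor, proteases of the ADAM family and the gamma-secretase complex cut it, and the freed intracellular part enters the nucleus, where it joins the DNA-binding protein RBPJ and a Mastermind co-activator to switch on genes such as Hes1. In the tail of the embryo the pathway is part of the segmentation clock of the presomitic mesoderm, the tissue that forms the somites, and in embryonic stem cells it is known for a role in the exit towards neural fates.

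The stretches just upstream of the start sites of Dll3 and Dll1, the members with the clearest fall and the only rise, and of the target genes Nrarp and Lfng are shown here because their levels are described below. They are the 250 bases before each RefSeq start site on the gene's own strand (build GRCm38.p6, matched by symbol, while GRCm39 is the build in the submitters' processing notes). Such sequences were matched for 9 of the 10 genes. None was matched for Hes1, so its promoter was not searched. Capitals mark matches, on either strand, to TGGGAA, the core of the RBPJ site, or to TCACAC, the core of the T-box site.
Dll3 (chr7:28301786-28302035, minus strand): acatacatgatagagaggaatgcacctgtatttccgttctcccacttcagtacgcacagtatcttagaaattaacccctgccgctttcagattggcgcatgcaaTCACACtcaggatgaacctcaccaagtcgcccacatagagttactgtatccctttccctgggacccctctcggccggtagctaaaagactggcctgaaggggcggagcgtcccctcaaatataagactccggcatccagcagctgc
Dll1, first start site (chr17:15375824-15376073, minus strand): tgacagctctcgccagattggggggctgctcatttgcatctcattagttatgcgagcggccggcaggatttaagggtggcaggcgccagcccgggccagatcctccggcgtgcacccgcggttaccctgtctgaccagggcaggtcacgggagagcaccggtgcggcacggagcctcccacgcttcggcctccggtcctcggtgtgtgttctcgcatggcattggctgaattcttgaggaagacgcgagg
Dll1, other start site (chr17:15376933-15377182, minus strand): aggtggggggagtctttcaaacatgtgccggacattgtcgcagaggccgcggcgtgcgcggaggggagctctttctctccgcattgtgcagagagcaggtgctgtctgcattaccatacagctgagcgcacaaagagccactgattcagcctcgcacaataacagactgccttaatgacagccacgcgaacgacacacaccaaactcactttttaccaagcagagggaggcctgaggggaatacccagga
Nrarp (chr2:25180508-25180757, plus strand): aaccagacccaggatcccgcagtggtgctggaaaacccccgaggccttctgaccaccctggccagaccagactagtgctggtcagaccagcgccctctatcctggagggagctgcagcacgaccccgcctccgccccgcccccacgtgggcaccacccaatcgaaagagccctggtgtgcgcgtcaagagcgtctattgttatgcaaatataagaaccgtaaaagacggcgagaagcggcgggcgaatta
Lfng (chr5:140607091-140607340, plus strand): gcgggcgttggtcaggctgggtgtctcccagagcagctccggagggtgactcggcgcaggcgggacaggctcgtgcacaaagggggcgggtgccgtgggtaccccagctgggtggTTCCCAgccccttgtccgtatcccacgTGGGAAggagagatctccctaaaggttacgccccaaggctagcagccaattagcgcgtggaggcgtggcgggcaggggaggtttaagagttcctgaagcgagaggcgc

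Among the 10 promoter windows of the 9 genes, only that of Lfng held TGGGAA, with 2 matches, whose nearer ends lay 130 and 103 bases upstream of the start. The second of them was also the only match to the longer form GTGGGAA, which contains the core. Only the Dll3 window held TCACAC, at 141 bases upstream, and none held CTTTGA, the core of the TCF/LEF site. Of 32851 mouse promoter windows of the same length, 21.6% held TGGGAA, 5.42% GTGGGAA, 12.3% TCACAC and 13.8% CTTTGA on either strand. A match is a description of the letters and not a binding site.

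Libraries held 5666168 to 7476862 counted reads. In the 3 budesonide libraries 3 reads corresponded to 0.423 to 0.552 CPM (the standard per-library scaling of reads, here adjusted by the trimmed mean of M values, TMM), and in the 3 untreated libraries to 0.422 to 0.471 CPM. Such a floor covers counting error only. Over all genes 28.7% passed the test (quasi-likelihood test of edgeR, p adjusted after Benjamini and Hochberg, under 0.05), and 52.9% of these were higher with budesonide, a share that was 38.6% with library totals and no scaling factor. The libraries kept the marks of pluripotent cells: 10 stem cell markers summed to 2111 to 2307 CPM in budesonide libraries and 1422.5 to 1490 CPM in untreated libraries, and 7 of the 9 tested rose. Budesonide replicates 2 and 3 lay apart along the second principal component, which held 14.6% of the variance. All calls on the 9 members were the same without either of them.

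With budesonide 6 of the 9 tested Notch genes fell and 1 rose, where 13.5% of all tested genes fell and 15.2% rose. Dll3 fell most, to 3.54 ± 1.04 CPM with budesonide against 15.3 ± 1.57 CPM untreated (mean ± SD, n = 3 each, as in all such values). Nrarp, Jag1, Hes1, Notch2 and Notch3 were the others that fell, and Dll1 rose. Notch1 and Jag2 did not pass. The median log2 fold change of the 9 was -0.53, beside -0.02 for all genes tested. In bulk RNA, fewer cells that express a gene and less RNA per cell cannot be told apart.

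**Figure D1:**
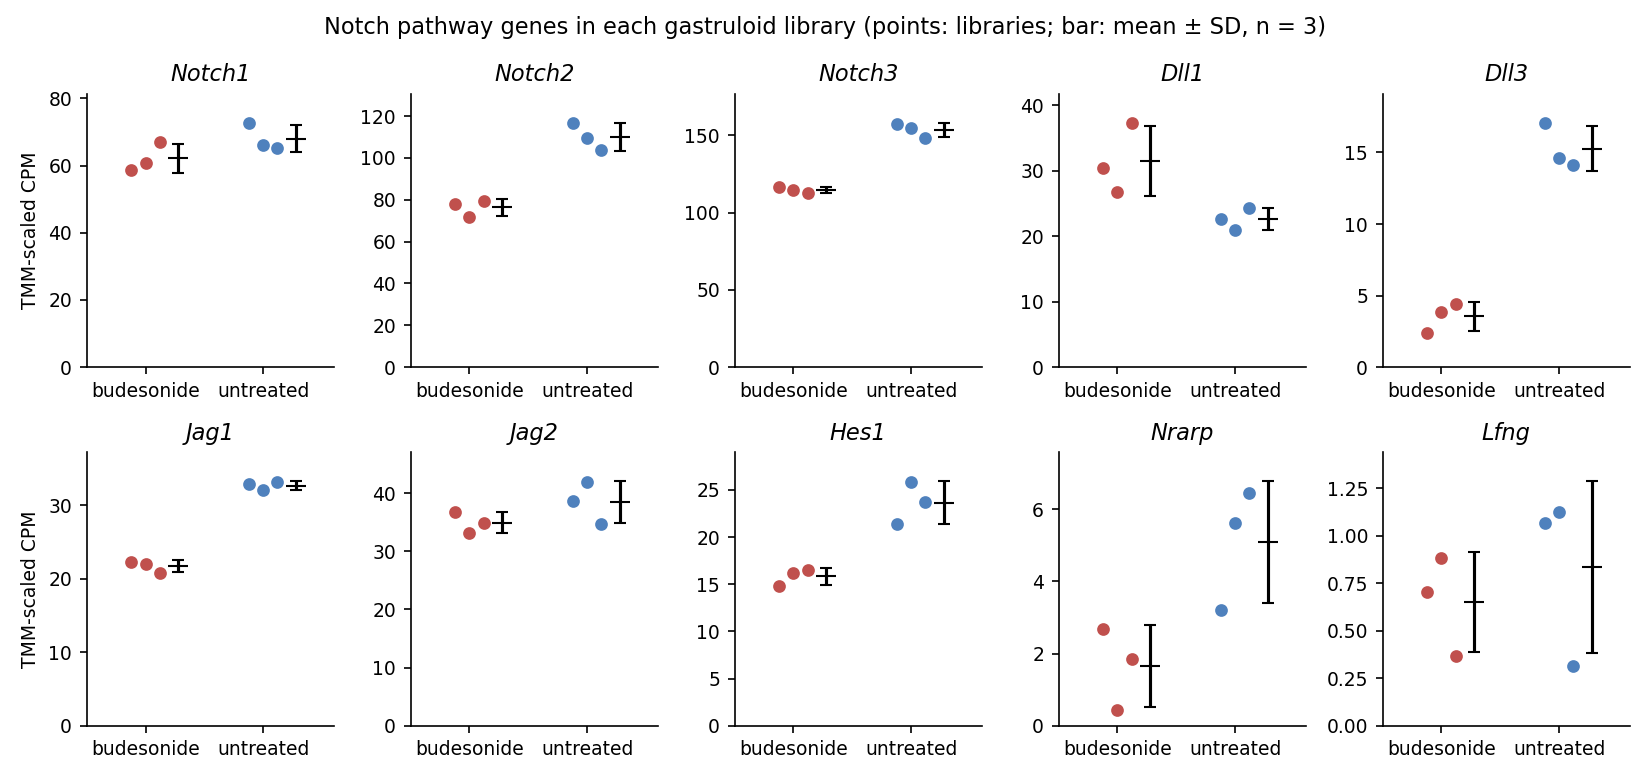
Level of each of the 10 genes in every library, in CPM scaled by the trimmed mean of M values; points are libraries, and bars give the mean ± SD of 3 libraries, with each vertical axis starting at 0. Dll3 lies between 2.40 and 4.41 CPM in budesonide libraries and between 14.1 and 17.1 CPM in untreated libraries, while Dll1 is the member whose budesonide libraries all lie above the untreated ones.

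Among the receptors, Notch3 had the most reads per kilobase of the longest transcript. With the median length over all transcripts, Notch1 stood above it in budesonide replicate 3 (49.3% against 46.8% of the receptor reads per kilobase). Notch3 was at 117, 115 and 113 CPM in the budesonide libraries and at 157, 155 and 148 CPM in the untreated libraries. The groups did not overlap, and the 3 libraries of each group lay close together. Notch3 fell 1.34-fold (log2 fold change -0.42 ± 0.06, SE; edgeR adjusted p = 5.21e-07). With an offset for GC content and transcript length together the log2 fold change was -0.22, still called (edgeR adjusted p = 0.00881). The longest transcript of Notch3 has 8016 bases and is 59.6% GC, beside a median GC content of 49.0% over the tested genes. GC content and length were not tested apart.

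Notch2 was at 77.8, 71.7 and 79.6 CPM with budesonide and at 117, 109 and 104 CPM untreated. Every budesonide library was below every untreated one. It fell 1.44-fold (log2 fold change -0.53 ± 0.07, SE; edgeR adjusted p = 4.73e-08). Notch1, the receptor that is required for normal somite formation in the mouse, was at 58.7, 60.6 and 67.1 CPM with budesonide and at 72.7, 66.1 and 65.2 CPM untreated. Its groups overlapped, because budesonide replicate 3 lay above untreated replicates 2 and 3. The log2 fold change of -0.13 did not pass (edgeR adjusted p = 0.216), and its 95% interval, as a ratio of budesonide to untreated, was 0.817 to 1.02. With library totals and no scaling factor Notch1 passed as lower (log2 fold change -0.21; edgeR adjusted p = 0.0328), and with the GC content and length offset its log2 fold change was 0.04.

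The reads of the 3 receptors together came to 247 to 259 CPM in budesonide libraries and 318 to 347 CPM in untreated libraries, without overlap. Per kilobase of the longest transcript, Notch3 held 50.9 ± 1.68% of the receptor reads with budesonide and 52.1 ± 0.849% untreated. Notch1 held 23.3 ± 1.32% with budesonide and 19.5 ± 0.486% untreated, and Notch2 25.9 ± 0.909% with budesonide and 28.5 ± 0.465% untreated. These shares are given without a test. They depend on the transcript length that is used: with the median length of the coding transcripts, a choice made after seeing the data, Notch2 held 15.8% with budesonide and 17.7% untreated.

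The ligands moved in different directions. Dll3 is a divergent Delta-like protein that in mammals does not activate Notch on neighbouring cells, and mouse mutants lacking it have defects of somite segmentation. It had 17, 26 and 24 reads in the budesonide libraries and 112, 104 and 90 reads in the untreated libraries, which is 2.40, 3.83 and 4.41 CPM with budesonide and 17.1, 14.6 and 14.1 CPM untreated. The lowest untreated library stood at more reads than the 3 budesonide libraries held together. Dll3 fell 4.38-fold, with a 95% interval for the ratio of budesonide to untreated of 0.172 to 0.303 (log2 fold change -2.13 ± 0.20, SE; edgeR adjusted p = 6.17e-12). Only 0.291% of the tested genes had a log2 fold change as low or lower.

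Dll1, the main activating ligand of the presomitic mesoderm and of neural progenitors, did the opposite. It was at 30.4, 26.8 and 37.3 CPM with budesonide and at 22.6, 20.95 and 24.4 CPM untreated. All budesonide libraries were above all untreated ones, and budesonide replicate 3 was the highest. Dll1 rose 1.38-fold, with a 95% interval of 1.17 to 1.63 (log2 fold change 0.47 ± 0.12, SE; edgeR adjusted p = 0.00159). Without budesonide replicate 3 the log2 fold change was 0.35 and still passed (edgeR adjusted p = 0.0337). Per kilobase, the ratio of Dll1 to Dll3 was 9.29, 5.12 and 6.18 in the budesonide libraries and 0.966, 1.05 and 1.26 in the untreated libraries.

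Jag1, a Jagged ligand that also acts in vessels and the inner ear, was at 22.3, 22.1 and 20.8 CPM with budesonide and at 32.9, 32.1 and 33.2 CPM untreated. The libraries of each group were nearly level, and the groups were far apart for that spread. Jag1 fell 1.503-fold (log2 fold change -0.59 ± 0.11, SE; edgeR adjusted p = 2.55e-05). Its close relative Jag2 was at 36.8, 33.1 and 34.9 CPM with budesonide and at 38.7, 41.9 and 34.7 CPM untreated. These groups overlapped, and Jag2 did not pass (log2 fold change -0.14 ± 0.10, SE; edgeR adjusted p = 0.315; 95% interval of the ratio 0.792 to 1.04).

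**Figure D2:**
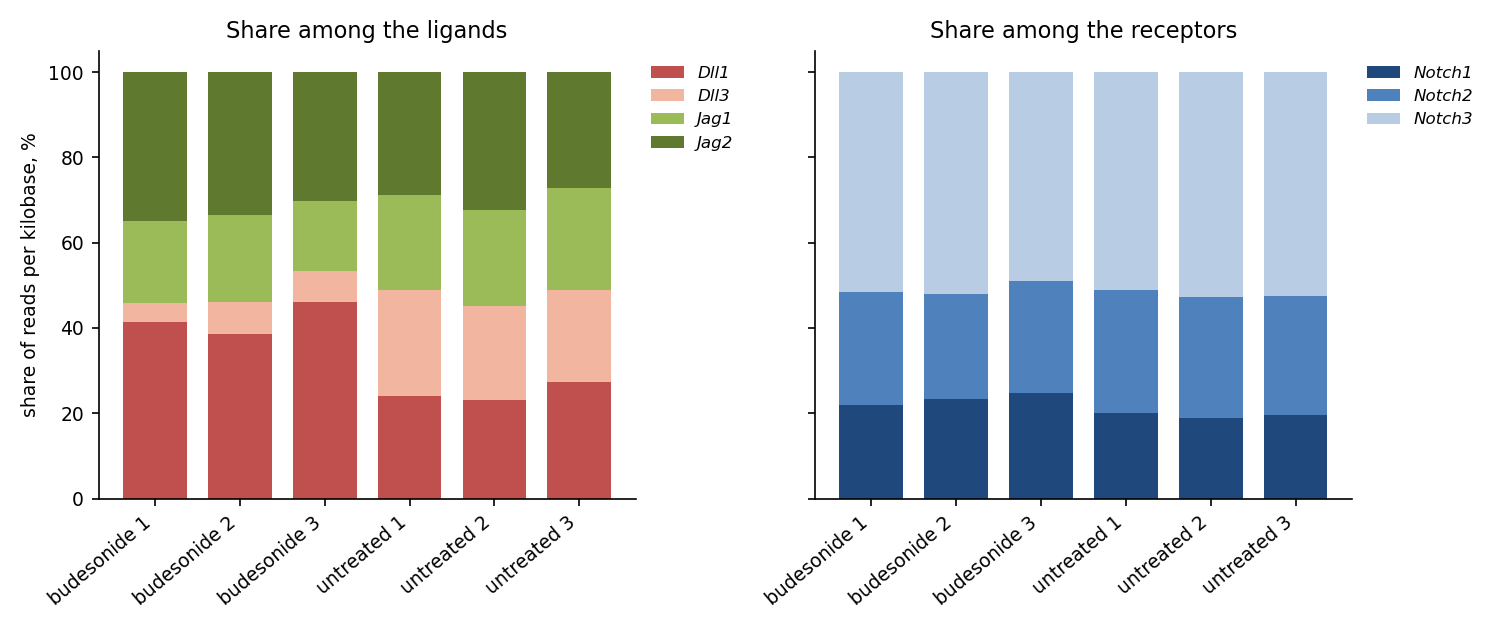
Share of each ligand (left) and each receptor (right) in the reads per kilobase of its role, in percent, for the 3 budesonide and 3 untreated libraries, using the longest transcript of each gene. Dll3 takes 6.48% of the ligand reads with budesonide on average and 22.8% untreated, and Dll1 42.0% with budesonide and 24.8% untreated.

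The ligand mixture differed accordingly. Dll1 made up 42.0 ± 3.74% of the ligand reads per kilobase with budesonide and 24.8 ± 2.23% untreated, and Dll3 6.48 ± 1.76% with budesonide and 22.8 ± 1.72% untreated. Jag2 was at 32.9 ± 2.45% with budesonide and 29.5 ± 2.59% untreated, and Jag1 at 18.6 ± 2.06% with budesonide and 22.9 ± 0.748% untreated. The 4 ligands summed to 85.8 to 97.4 CPM with budesonide and 106 to 111 CPM untreated. With the median length of the coding transcripts Dll3 had 4.25% of the ligand reads with budesonide and 16.5% untreated.

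The 2 tested target genes both fell. Hes1, a transcriptional repressor that oscillates in stem cells and in the presomitic mesoderm, was at 14.8, 16.2 and 16.5 CPM with budesonide and at 21.3, 25.9 and 23.7 CPM untreated. No budesonide library reached the lowest untreated one. Hes1 fell 1.498-fold (log2 fold change -0.58 ± 0.13, SE; edgeR adjusted p = 0.000299).

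Nrarp, a small ankyrin-repeat protein that Notch induces and that dampens Notch in return, had 19, 3 and 10 reads with budesonide and 21, 40 and 41 reads untreated. On the CPM scale that was 2.68, 0.441 and 1.84 with budesonide and 3.20, 5.62 and 6.44 untreated. The groups did not overlap, but budesonide replicate 1 came near untreated replicate 1, and the spread within each group was wide. Nrarp fell 3.05-fold (log2 fold change -1.61 ± 0.37, SE; edgeR adjusted p = 0.00095). Its size rested on single libraries: it was -2.22 without budesonide replicate 1 and -1.12 without budesonide replicate 2, called in both cases. Lfng had 5, 6 and 2 reads with budesonide and 7, 8 and 2 reads untreated, too few for the test. Without the filter on low counts its log2 fold change was -0.36 ± 0.65 (SE), so a change of Lfng was not detectable at this depth.

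**Figure D3:**
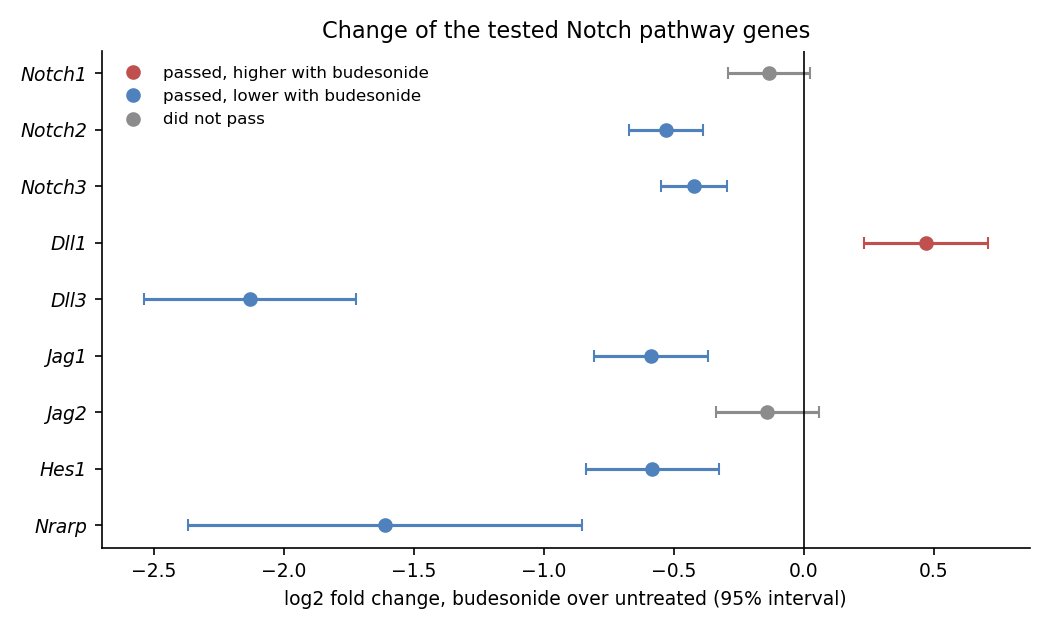
Log2 fold change of budesonide over untreated for the 9 tested genes, with 95% intervals from the edgeR quasi-likelihood fit; colours give the call at an adjusted p under 0.05. Dll3 at -2.13 and Nrarp at -1.61 are the lowest, Dll1 at 0.47 is the only gene above 0, and the intervals of Notch1 and Jag2 include 0.

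Budesonide and untreated libraries did not overlap for 7 of the 9 tested genes, Dll1 being higher and the other 6 lower. Over all tested genes the groups did not overlap for 39.6%, made up of 19.8% higher and 19.8% lower. The levels per kilobase of the longest transcript gave the following order, which depends on that length. In budesonide libraries the order was Notch3 (14.3 CPM per kilobase), Hes1 (10.8), Dll1 (8.80), Notch2 (7.27), Jag2 (6.84), Notch1 (6.55), Jag1 (3.87), Dll3 (1.35), Nrarp (0.640) and Lfng (0.283). In untreated libraries it was Notch3 (19.2 CPM per kilobase), Hes1 (16.1), Notch2 (10.5), Jag2 (7.53), Notch1 (7.17), Dll1 (6.32), Dll3 (5.84), Jag1 (5.83), Nrarp (1.97) and Lfng (0.362). With budesonide the ranges of Hes1 and Dll1, of Dll1 and Notch2, of Notch2, Jag2 and Notch1, of Dll3 and Nrarp, and of Nrarp and Lfng overlapped. Untreated, those of Jag2 and Notch1, of Jag2 and Dll1, and of Dll1, Dll3 and Jag1 did. Dll1 and Dll3, whose ranges overlapped in untreated libraries, did not overlap with budesonide. With the median length of the coding transcripts Notch1 stood above Notch2, at 12.4 against 7.27 CPM per kilobase with budesonide and 13.6 against 10.5 CPM per kilobase untreated, and Jag2 did so too, at 11.9 CPM per kilobase with budesonide and 13.1 CPM per kilobase untreated.

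Genes of the primitive streak and tailbud also fell with budesonide, as did 13.5% of all tested genes. A tie between them and Dll3 was not tested. The 10 markers of that list summed to 22.1 to 26.7 CPM with budesonide and 307 to 327 CPM untreated, and 8 of 8 tested fell. T (Brachyury), the T-box factor of the streak and tailbud, was at 2.64 ± 0.589 CPM with budesonide and 127 ± 8.87 CPM untreated. The 8 neural progenitor markers summed to 59.6 to 61.1 CPM with budesonide and 146 to 159 CPM untreated, mostly through Nes (36.0 ± 1.96 CPM with budesonide and 131 ± 5.21 CPM untreated). Of the 4 that could be tested, Nes and Irx3 fell and Pax6 rose. Pax6, a transcription factor of neural progenitors, was at 16.9 ± 1.94 CPM with budesonide and 9.48 ± 0.803 CPM untreated (edgeR adjusted p = 2.26e-05). Sox1 was at 0.921 and Hes5 at 0.0981 CPM with budesonide, and at 1.68 and 0.206 CPM untreated. The part of these cell populations in the changes of the Notch genes was not tested. The 11 endothelial markers, of cells in which Jag1 and Notch4 act, summed to 37.9 to 45.0 CPM with budesonide and 39.8 to 44.4 CPM untreated. Of the 7 that could be tested, Tek rose and the other 6 did not pass. Tek was at 18.3 ± 0.402 CPM with budesonide and 14.0 ± 2.03 CPM untreated (edgeR adjusted p = 0.028).

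The 8 markers of presomitic and paraxial mesoderm summed to 35.0 to 39.3 CPM with budesonide and 27.7 to 30.6 CPM untreated, mostly through Tcf15 (30.4 ± 2.72 CPM with budesonide and 21.3 ± 1.39 CPM untreated). Only Tcf15 and Pax3 had enough reads to be tested, and Pax3 did not pass. Msgn1 and Tbx6, which define the presomitic mesoderm, were near 0 in both groups. Msgn1 had no read in any budesonide library and 4, 3 and 1 reads untreated, and Tbx6 was at 0.840 ± 0.384 CPM with budesonide and 1.36 ± 0.224 CPM untreated. The clock gene Hes7 was at 1.44 ± 0.401 CPM with budesonide and 2.22 ± 0.968 CPM untreated and did not pass (edgeR adjusted p = 0.311). Of the 25 genes listed for the segmentation clock and presomitic mesoderm 16 could be tested, and 4 rose and 8 fell (median log2 fold change -0.55). Over all tested genes 15.2% rose and 13.5% fell. T and Fgf8, the posterior FGF ligand, fell most clearly, and both are also among the streak and tailbud markers counted above. Dusp4, a MAP kinase phosphatase, rose 1.39-fold (edgeR adjusted p = 6.94e-06), and Tcf15, a bHLH factor of paraxial mesoderm that is also expressed in stem cells leaving the naive state, rose 1.43-fold (edgeR adjusted p = 0.000365).

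**Figure D4:**
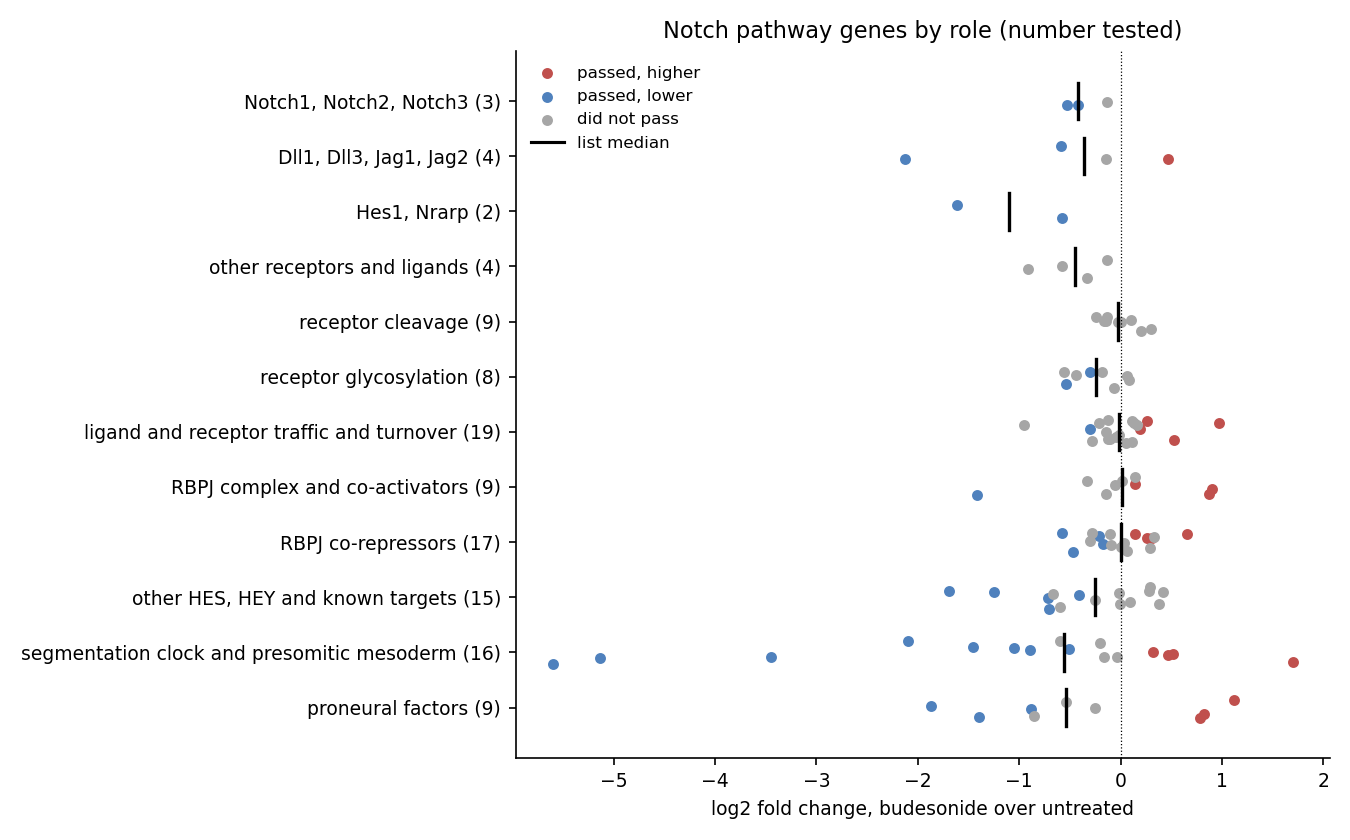
Log2 fold change of budesonide over untreated for every tested gene of the lists, grouped by role with the number tested in brackets; colours give the call at an adjusted p under 0.05, and black bars mark list medians. The cleavage genes sit between -0.25 and 0.30 with no call, while the list of RBPJ and its co-activators holds Rbpj at 0.91 and Maml3 at -1.41.

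The rest of the pathway was read from lists made by role. Over 131 further genes, 104 could be tested, of which 18 rose and 24 fell (median log2 fold change -0.11). Without the clock and proneural lists it was 11 and 13 of 81 tested (median -0.07), close to the 15.2% and 13.5% of all tested genes. No gene of the other receptors and ligands passed, among 4 tested, with 2 at an unadjusted p under 0.05 in edgeR and 0 called by DESeq2. Notch4 was at 10.1 ± 1.63 CPM with budesonide and 10.96 ± 1.85 CPM untreated, and Dll4, with too few reads for the test, at 1.30 ± 0.523 CPM with budesonide and 1.246 ± 0.137 CPM untreated. The imprinted non-classical ligand Dlk1 was at 1.34 ± 0.0625 CPM with budesonide and 2.55 ± 0.377 CPM untreated (edgeR adjusted p = 0.0732).

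None of the 9 tested genes for receptor cleavage passed, with log2 fold changes between -0.25 and 0.30. At an unadjusted p under 0.05 there was 1, the protease gene Adam17, lower, and DESeq2 called 0. Under the other alternatives the number called lower was 2 without budesonide replicate 1, 1 with upper quartile scaling, 1 with library totals and 0 elsewhere. The list includes Adam10, which makes the first cut (28.9 ± 7.81 CPM with budesonide and 32.0 ± 3.91 CPM untreated), and the gamma-secretase subunit Ncstn (33.7 ± 3.24 CPM with budesonide and 34.4 ± 2.43 CPM untreated). Of 8 genes for receptor glycosylation 2 fell and the other 6 did not pass (median log2 fold change -0.24), where 13.5% of all tested genes fell. Pofut1, which adds the fucose that Lfng extends, was at 21.6 ± 0.254 CPM with budesonide and 26.6 ± 1.95 CPM untreated, and the galactosyltransferase B4galt1 at 13.7 ± 3.59 CPM with budesonide and 19.96 ± 4.44 CPM untreated. Neither was called in DESeq2, without budesonide replicate 2 or 3, or without untreated replicate 1. Of the 16 alternatives, 5 kept the call on Pofut1 and 11 that on B4galt1.

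Among 19 genes of ligand and receptor traffic 4 rose and 1 fell (median log2 fold change -0.02). By comparison, 15.2% of all tested genes rose and 13.5% fell. Mib2, a ubiquitin ligase that drives ligand endocytosis, rose 1.96-fold, with 52.1 ± 2.93 CPM under budesonide and 26.7 ± 0.923 CPM untreated (edgeR adjusted p = 1.38e-11). Its relative Mib1 was at 143 ± 3.77 CPM with budesonide and 156 ± 2.72 CPM untreated and did not pass (edgeR adjusted p = 0.126). The ubiquitin ligase Nedd4 rose 1.19-fold (edgeR adjusted p = 8.55e-05), and Itch, a ligase of the same family that targets Notch, fell to 95.5 ± 2.004 CPM with budesonide, against 118 ± 4.39 CPM untreated (edgeR adjusted p = 0.000304). With library totals and no scaling factor 5 genes of this list fell, and with upper quartile scaling 4.

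In the list of RBPJ and its co-activators 3 of 9 genes rose, 1 fell and 5 did not pass (median log2 fold change 0.01). The shares over all tested genes were 15.2% higher and 13.5% lower. Rbpj was at 182, 181 and 167 CPM with budesonide and at 95.9, 92.0 and 95.5 CPM untreated. The groups were far apart, and Rbpj rose 1.87-fold (log2 fold change 0.91 ± 0.06, SE; edgeR adjusted p = 6.16e-16). The acetyltransferase Kat2b (PCAF) rose 1.83-fold (edgeR adjusted p = 1.31e-13). Of the Mastermind co-activators, Maml3 fell to 6.62 ± 1.40 CPM with budesonide, against 17.8 ± 0.333 CPM untreated (edgeR adjusted p = 1.77e-09), while Maml1 was at 47.3 ± 2.56 CPM with budesonide and 46.7 ± 5.23 CPM untreated. The third gene that rose was the acetyltransferase Crebbp, by 0.14 on the log2 scale, a call that was lost under 9 of the 16 alternatives.

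The co-repressors of RBPJ split, with 4 higher and 4 lower among 17 (median log2 fold change 0.00). All tested genes gave 15.2% higher and 13.5% lower. Tle4, a Groucho-family co-repressor that HES proteins recruit, rose 1.57-fold (edgeR adjusted p = 4.76e-12) and Ncor1, a shared co-repressor of nuclear factors, 1.24-fold (edgeR adjusted p = 8.64e-06). L3mbtl3, a chromatin reader that binds RBPJ, fell to 24.1 ± 0.604 CPM with budesonide, against 36.0 ± 2.21 CPM untreated (edgeR adjusted p = 2.13e-05), and Tle3 fell to 108 ± 13.0 CPM, against 149 ± 19.0 CPM untreated (edgeR adjusted p = 0.000195). In DESeq2 it was 2 higher and 2 lower.

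Of the other HES, HEY and known target genes, 15 of 23 could be tested. Among these 5 fell and the other 10 did not pass (median log2 fold change -0.25), where 13.5% of all tested genes fell. Cyclin D1, Ccnd1, fell to 73.1 ± 6.81 CPM with budesonide, against 120 ± 7.95 CPM untreated (edgeR adjusted p = 5.53e-11), and Sox9 fell to 1.38 ± 0.785 CPM, against 3.44 ± 0.572 CPM untreated (edgeR adjusted p = 0.00838), though not in DESeq2 or without budesonide replicate 3. DESeq2 called 1 gene of this list. These genes have other inputs besides Notch. The classical targets Hey1 (2.38 ± 0.799 CPM with budesonide and 2.43 ± 0.566 CPM untreated), Hey2 (2.28 ± 0.645 CPM with budesonide and 1.89 ± 0.904 CPM untreated) and Heyl (1.38 ± 0.740 CPM with budesonide and 1.43 ± 0.450 CPM untreated) had low levels and did not pass. They were named after their values were seen, as was Hes7.

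Of 14 proneural and early neuronal genes 9 could be tested, with 3 rises and 3 falls (median log2 fold change -0.54). Among all tested genes 15.2% rose and 13.5% fell. The neuronal tubulin Tubb3 rose 2.17-fold, with 12.6 ± 1.602 CPM under budesonide and 5.85 ± 0.884 CPM untreated (edgeR adjusted p = 3.54e-06), and the microtubule regulator Stmn2 rose 1.77-fold (edgeR adjusted p = 1.14e-12). Dcx, a protein of migrating neurons, fell to 1.99 ± 0.848 CPM with budesonide, against 5.12 ± 0.809 CPM untreated (edgeR adjusted p = 0.000393). The proneural factors Neurog1 and Neurog2 had under 1 CPM in both groups.

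The gene outside these lists whose log2 CPM followed each changed member most closely over the 6 libraries was Chst2 for Dll3 (Pearson r = 0.998), Hspb8 for Dll1 (r = 0.998), Zfp703 for Jag1 (r = 0.999), Patj for Notch2 (r = 0.999), Mycl for Notch3 (r = 0.998), Atp10a for Hes1 (r = 0.991) and Tlk1 for Nrarp (r = 0.996). They were the best of 10341 genes searched over only 6 libraries that fall into 2 groups, so each correlation also carries the difference between the groups. A correlation does not compare the size of the changes. The log2 fold changes of these genes were -1.27 (Chst2), 0.69 (Hspb8), -3.48 (Zfp703), -0.76 (Patj), -1.75 (Mycl), -1.04 (Atp10a) and -0.14 (Tlk1).

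Exons of 5 members overlap those of another gene in GENCODE M21, and the counting's strand setting is not given in the sources used here, so reads in these overlaps cannot be assigned. Among the overlapping genes with counts, the one with the most reads was Gm42820 on the strand of Notch2, with 11 to 17 reads in budesonide libraries and 18 to 22 reads in untreated libraries, beside 433 to 552 reads of Notch2 with budesonide and 661 to 778 reads untreated. Gm38287, opposite Nrarp, had at most 5 reads in any library. A930024N18Rik, on the strand opposite Dll1, was not in the count table under that symbol, so the part of that overlap in the reads of Dll1 was not tested. Dll3, Jag1, Jag2, Hes1 and Lfng had no such overlap.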

How the data were processed

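Stranded mRNA libraries of E14 gastruloids were sequenced, per the labels' protocols. GRCm39, STAR 2.7.5c, featureCounts 2.0, cutadapt 2.5, bcl2fastq and DESeq2 are listed, without roles, per the submitters' processing notes. The annotation, the parameters and the strandedness of counting were not given in the sources used here. The authors deposited raw counts per gene symbol, which were used here, and a scaled table of the same libraries, which was not.

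Sample titles gave the groups and replicate numbers. The test was edgeR 4.0.16 in R 4.3.3: filterByExpr (minimum count 10, minimum total 15), scaling by the trimmed mean of M values, robust quasi-likelihood fits on group alone, and adjustment after Benjamini and Hochberg over all 17155 genes. Standard errors came from the F statistic. Levels per kilobase used GENCODE M21 transcript lengths. No library repeated another: within a group the chi-square per gene was 1.43 to 3.14, where sampling noise gives 1. The edgeR step was run on simulated counts with changes of known size, drawn with the spread fitted to these same libraries. Such a run checks the working of the step only. It cannot show if the spread among replicates is technical. Alternatives were DESeq2 1.42.0, other scalings, filters and thresholds, a GC content and length offset, a replicate block and leaving out each library.

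The members, lists and motifs were chosen with earlier results of these data known. Besides the 10 members, the text names, for each list, up to 2 risen and 2 fallen genes ranked by adjusted p among those averaging 1 CPM or more, and any gene of the lists of other receptors and ligands and of RBPJ and its co-activators. Further genes (markers, cleavage genes, Mib1, Hes7 and the HEY genes among them) were chosen after their values were seen. Some genes that this rule could name are not reported here.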

Additional observations from a re-analysis of the deposited data

How the results depend on the processing

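The 7 called members, Dll1 higher and Dll3, Nrarp, Jag1, Hes1, Notch2 and Notch3 lower, kept direction and call under all 16 alternatives, DESeq2, each left-out library and the stricter threshold of 0.01 included. Over these alternatives the log2 fold change lay between -2.29 and -1.89 for Dll3, 0.35 and 0.59 for Dll1, -0.67 and -0.54 for Jag1, -0.66 and -0.51 for Hes1, -0.61 and -0.41 for Notch2, -0.50 and -0.22 for Notch3, and -2.22 and -1.12 for Nrarp. Notch1 passed only with library totals, and Jag2 under none. Over all genes DESeq2 called 1318 lower genes, against 2316 in edgeR. Of the further pathway genes 13 were lower in DESeq2 and 37 with library totals, against 24, and leaving out a library gave 13 to 20 higher and 18 to 23 lower. The cause was not tested. Same-numbered libraries hardly deviated together (correlations 0.04, 0.06 and -0.02 for replicates 1, 2 and 3). Budesonide replicates 1 and 2 matched the untreated library of their own number best, and replicate 3 did not. The numbers were not used as pairs. With the replicate number as a block 2649 genes were higher and 2337 lower, and with the block and the GC content and length offset together 3115 and 2007, with no change of call on a member. Shares per kilobase depend on the transcript length: with the median over all transcripts, which includes short fragments, Notch2 held 3.79% of the receptor reads with budesonide and 4.44% untreated, and Dll3 4.14% of the ligand reads with budesonide and 16.3% untreated. Depth limits Lfng and Nrarp most.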
